A study of Mus musculus with 8 samples.

Results

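The endothelial and mural marker module held 36 of the 14569 genes in the deposited table, picked by gene symbol. Of these, 27 mark the endothelial cells that line vessels, and 9 (Rgs5, Notch3, Pdgfrb, Cspg4, Kcnj8, Acta2, Myh11, Tagln and Cnn1) mark mural cells, the pericytes and smooth muscle cells that wrap them. All 36 passed the filter on low values, and 92 of the 33027 transcripts in the table belonged to them. The RNA came from the left ventricle of mice of a C57 background at 6 months of age. There were 3 libraries of mdx sln+/- mice, which are mdx mice that are also heterozygous for sln, 3 libraries of mdx mice, which the submitters call a heart failure model, and 2 libraries of wild-type (WT) mice. The mdx and mdx sln+/- groups share the mdx background, whereas WT carries neither change. Separate animals behind the libraries of a group are not stated in the labels; the p-values therefore rest on a spread between libraries that may be technical. The RNA is that of whole ventricle and not of sorted cells, so no value belongs to one cell type.

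Endothelial cells of the heart form a dense capillary bed that hands fatty acids and oxygen to the muscle cells. Whether they stay in place or sprout is governed by the VEGF receptors Kdr and Flt1, the angiopoietin receptor Tek, Notch signalling and BMP signalling through endoglin. Pericytes sit on capillaries and are recruited through Pdgfrb, and smooth muscle cells of arteries carry the contractile proteins encoded by Acta2, Myh11, Tagln and Cnn1.

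Dmd, the gene that carries the mdx mutation, had log2 values of 4.09, 4.10 and 4.25 in mdx sln+/- libraries and 4.30, 4.32 and 4.22 in mdx libraries, against 6.60 and 6.98 in WT libraries. Every library thus lay on the side its dystrophin genotype gives, and Sln itself was not analysed here. All values below are log2(value + 1), where the value is the normalised abundance summed over the transcripts of a gene. Differences are limma estimates on these log2 values with their standard error (SE). With an mdx or mdx sln+/- library left out, an estimate can depart from the difference of group means. The fit then shifts it by a term that had been removed before deposit and is described under processing. Summed abundances ranged from 780262 to 924253 per library, and the number of reads behind them is not given. It is not given whether values were divided by transcript length, so levels are not compared between genes, and sums over genes or a choice of genes by mean level hold only on this scale. WT 2 stood apart. It was the lowest of the 8 libraries for 17 of the 27 endothelial members and for all 5 pericyte members. Of all 13776 genes tested, it was the lowest library for 3833 and the highest for 2758, the most of any library in both directions. The Y-linked gene Ddx3y was at 1.76 in mdx sln+/- 3 and 1.29 in WT 2, against 3.94 to 6.64 in the other 6 libraries, with WT 1 at 6.64. The Y-linked level cannot be told apart from other differences between WT 1 and WT 2. Eif2s3y, Kdm5d and Uty, also Y-linked, were likewise lowest in mdx sln+/- 3 and WT 2. For the calls against WT, the effect of leaving out WT 2 is therefore given for each gene or as a count, and with both of these libraries left out 0 of the 36 members passed in either comparison with WT.

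Sequences of 250 bases before to 50 bases after the transcription start (RefSeq, GRCm38.p6) were at hand for 21 members with 26 starts. They are shown for the called members that had an entry, Emcn, Tek, Notch3 and Cspg4, and for Acta2 as one of the contractile genes; Aplnr, Ets1 and Vwf had none. Each runs in the direction of transcription, from chr3:137340828-137341127 (+) for Emcn, chr4:94739039-94739338 (+) for Tek, chr17:32166841-32167140 (-) for Notch3, chr9:56864854-56865153 (+) for Cspg4 and chr19:34255324-34255623 (-) for Acta2. Capitals mark matches on either strand to CNGGAAG (a core bound by ETS factors such as Ets1 and Erg), AGATAA (bound by factors of the GATA family) and TGGGAA (bound by RBPJ, the DNA-binding partner of Notch); the CArG box of serum response factor was searched too.
Emcn: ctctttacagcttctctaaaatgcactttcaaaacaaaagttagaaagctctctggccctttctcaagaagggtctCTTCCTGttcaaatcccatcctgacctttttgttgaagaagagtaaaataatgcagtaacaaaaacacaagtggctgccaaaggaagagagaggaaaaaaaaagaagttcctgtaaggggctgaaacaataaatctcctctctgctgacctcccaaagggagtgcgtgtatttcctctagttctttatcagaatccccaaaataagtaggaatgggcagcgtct
Tek: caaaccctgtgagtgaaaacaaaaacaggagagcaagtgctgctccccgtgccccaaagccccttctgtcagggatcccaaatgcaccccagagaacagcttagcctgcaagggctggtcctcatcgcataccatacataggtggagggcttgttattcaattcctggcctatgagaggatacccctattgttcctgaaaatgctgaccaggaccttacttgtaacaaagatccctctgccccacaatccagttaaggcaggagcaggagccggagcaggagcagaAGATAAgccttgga
Notch3: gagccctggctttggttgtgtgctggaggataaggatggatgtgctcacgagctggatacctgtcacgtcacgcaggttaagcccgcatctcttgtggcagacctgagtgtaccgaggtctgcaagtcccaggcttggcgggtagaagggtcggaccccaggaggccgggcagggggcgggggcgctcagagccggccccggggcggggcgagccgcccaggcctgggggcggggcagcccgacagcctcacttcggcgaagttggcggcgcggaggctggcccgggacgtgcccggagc
Cspg4: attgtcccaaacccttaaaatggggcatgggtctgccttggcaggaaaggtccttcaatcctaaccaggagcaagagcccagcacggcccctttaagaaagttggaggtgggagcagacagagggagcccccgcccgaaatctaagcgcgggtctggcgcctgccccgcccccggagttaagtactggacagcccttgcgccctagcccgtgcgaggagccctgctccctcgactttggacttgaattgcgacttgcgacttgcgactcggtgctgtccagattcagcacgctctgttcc
Acta2: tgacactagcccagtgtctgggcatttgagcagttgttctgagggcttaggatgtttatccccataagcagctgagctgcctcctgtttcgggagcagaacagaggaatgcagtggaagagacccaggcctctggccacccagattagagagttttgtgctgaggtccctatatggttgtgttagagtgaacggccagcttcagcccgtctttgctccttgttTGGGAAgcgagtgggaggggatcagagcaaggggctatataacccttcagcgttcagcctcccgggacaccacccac

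The Emcn window held 1 CNGGAAG match, read on the opposite strand and starting 174 bases before the start, and the Tek window held 1 AGATAA match starting 36 bases after it. In the Acta2 window TGGGAA began 27 bases before the start, and no match overlapped another in these 5 windows. CNGGAAG was found in 31.9% of all 32851 mouse windows of this length and in 8 of the 26 member windows, those of Dll4, Egfl7, Emcn, Erg, Flt1, Robo4 and Tie1. AGATAA was found in 11.2% of all windows and in 3 of the 26 member windows, those of Erg, Rgs5 and Tek. TGGGAA was found in 25.6% of all windows and in 8 of the 26 member windows. The CArG box (CC, then 6 A or T, then GG) was found in 1.63% of all windows and in 0 of the 26. Only full matches were counted, so stretches of the Acta2 window that differ from the CArG box in 1 letter were left out. Notch3 and Cspg4 held no full match in this window. These matches are descriptions of the sequence and not sites of binding.

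The first question was which vessel markers differ between dystrophin-deficient and wild-type ventricle. In mdx, 4 endothelial members rose against WT (Aplnr, Ets1, Emcn and Tek), 1 fell (Vwf) and 22 did not pass the test. Thus 18.5% of the endothelial members were called, against 15.1% of the 13776 genes tested, and 22.2% of the mural members (Cspg4 and Notch3, both higher, of 9). In mdx sln+/- against WT, the same 4 endothelial members rose and 0 fell, which is 14.8% against 15.9% of all genes, and 0 of 9 mural members were called (4 at an unadjusted p under 0.05). Over all genes, 9.41% rose and 6.5% fell in mdx sln+/-, and 8.15% rose and 6.95% fell in mdx. At an unadjusted p under 0.05 there were 14 of the 36 members in mdx sln+/- and 13 in mdx, against 33.7% and 32.4% of all genes. Libraries did not overlap with WT for 14 higher and 5 lower members in mdx sln+/-, against 36.4% and 23.5% of all genes (59.8% in both directions), and for 13 higher and 4 lower members in mdx, against 27.8% and 23.6% (51.4%). Over both directions together, these shares were near those of all genes. Of the 36 members, 19.4% were called in mdx and 11.1% in mdx sln+/-. By direction they were less alike, with 6 members called higher and 1 lower in mdx, and 4 and 0 in mdx sln+/-. Members lower than WT without overlap made up a smaller share than among all genes in both groups. This lean was not tested for the module as a group, and the results are given by gene. The median difference of the endothelial members was 0.19 in mdx and 0.23 in mdx sln+/-, against 0.02 and 0.05 over all genes, and without WT 2 it was 0.02 and 0.00. In these bulk libraries, fewer cells of a type and less RNA per cell cannot be told apart. Both comparisons use the same 2 WT libraries, so their likeness is not independent.

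**Figure D1:**
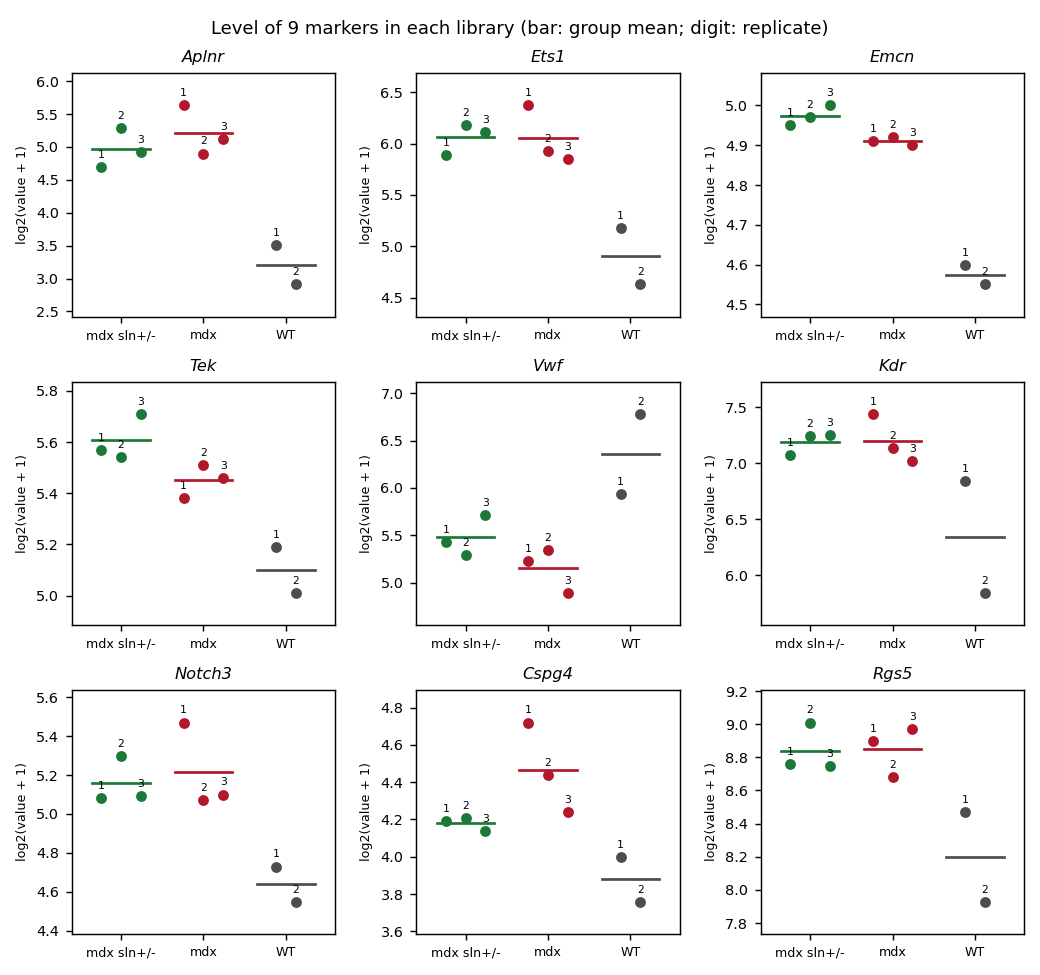
Level of the 7 called markers and of Kdr and Rgs5 in each library as log2(value + 1); points are libraries with their replicate number, bars are group means, and each panel has its own axis. Every mdx sln+/- and mdx library lies above both WT libraries for the 8 genes other than Vwf, for which every one lies below them.

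The apelin receptor Aplnr (chr2:85136225-85139923, + strand, 1 exon), a G-protein-coupled receptor of endothelium and of sprouting vessels, showed the largest difference in the module. Its log2 level was 4.69, 5.28 and 4.92 in mdx sln+/- libraries and 5.63, 4.90 and 5.12 in mdx libraries, against 3.51 and 2.91 in WT libraries. All 6 libraries of the mdx background lay more than 1 log2 unit above both WT libraries. The difference from WT was 1.75 ± 0.29 in mdx sln+/- (adjusted p = 0.011, limma) and 2.00 ± 0.29 in mdx (adjusted p = 0.00802), which is 3.37-fold and 4.01-fold. In mdx the call held without each library in turn (1.71 to 2.30, adjusted p up to 0.0488). In mdx sln+/- it ended without WT 2 only (1.46, adjusted p = 0.0615).

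Ets1 (chr9:32636221-32757820, + strand), a transcription factor of endothelium that lymphocytes also express, had 5.89, 6.18 and 6.11 in mdx sln+/- libraries and 6.37, 5.93 and 5.85 in mdx libraries, against 5.18 and 4.63 in WT libraries. The groups did not overlap, and mdx 1 was the highest library. The difference from WT was 1.16 ± 0.22 in mdx sln+/- (adjusted p = 0.0166, limma) and 1.15 ± 0.22 in mdx (adjusted p = 0.0178). The call in mdx ended without WT 2 (0.87, adjusted p = 0.086) and without mdx 1 (0.92, adjusted p = 0.052). In mdx sln+/- it ended without WT 2 (adjusted p = 0.0806), mdx sln+/- 1 (adjusted p = 0.0544) or mdx sln+/- 3 (adjusted p = 0.0654). The other endothelial transcription factors, Erg, Sox17 and Sox18, did not pass in either comparison, with differences of 0.31, -0.14 and -0.30 in mdx sln+/- and 0.19, -0.02 and 0.18 in mdx.

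Emcn (chr3:137341067-137432185, + strand) encodes endomucin, a sialomucin of capillary and venous endothelium. It had 4.95, 4.97 and 5.0 in mdx sln+/- libraries and 4.91, 4.92 and 4.90 in mdx libraries, against 4.60 and 4.55 in WT libraries. The 3 groups did not overlap with one another. The rise over WT was 0.40 ± 0.07 in mdx sln+/- (adjusted p = 0.0117, limma) and 0.34 ± 0.07 in mdx (adjusted p = 0.0192), or 1.32-fold and 1.26-fold. The call in mdx ended without WT 2 (adjusted p = 0.0768) or mdx sln+/- 1 (adjusted p = 0.0609), and that in mdx sln+/- ended without WT 2 (adjusted p = 0.0502), mdx sln+/- 1 (adjusted p = 0.0735) or mdx sln+/- 3 (adjusted p = 0.0682), with differences of 0.31 to 0.42 throughout.

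Tek (chr4:94739289-94874976, + strand), the tyrosine kinase receptor of the angiopoietins also known as Tie2, had 5.57, 5.54 and 5.71 in mdx sln+/- libraries and 5.38, 5.51 and 5.46 in mdx libraries, against 5.19 and 5.01 in WT libraries. It was highest in mdx sln+/-, without overlap between any 2 groups. The rise was 0.51 ± 0.09 in mdx sln+/- (adjusted p = 0.0152, limma) and 0.35 ± 0.09 in mdx (adjusted p = 0.0462). The call in mdx held only with WT 1 left out, and with any other library left out its adjusted p was 0.0686 to 0.189. That in mdx sln+/- ended without WT 2 (adjusted p = 0.074), mdx sln+/- 1 (adjusted p = 0.0696) or mdx sln+/- 3 (adjusted p = 0.0692). Tie1, the related orphan receptor, did not pass, at 0.25 ± 0.20 in mdx sln+/- and 0.35 ± 0.20 in mdx.

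The VEGF receptors did not pass the test. Kdr, the main signalling receptor for VEGF-A, had 7.07, 7.24 and 7.25 in mdx sln+/- libraries and 7.44, 7.14 and 7.02 in mdx libraries, against 6.84 and 5.84 in WT libraries. The groups did not overlap, but the WT libraries lay 1 unit apart, and the difference was 0.84 ± 0.28 in mdx sln+/- (adjusted p = 0.0821, limma) and 0.86 ± 0.28 in mdx (adjusted p = 0.0828). Without WT 2 it was 0.35 and 0.36. Flt1, which binds VEGF-A and holds it from Kdr, had 6.57, 6.32 and 6.51 in mdx sln+/- libraries and 5.40, 6.34 and 7.02 in mdx libraries, against 6.02 and 6.26 in WT libraries. The mdx libraries spanned the whole range of the 8. The difference in mdx was 0.13 ± 0.42 (adjusted p = 0.862), and with 1 library left out it passed the test only without mdx 1, the lowest library. The estimate was then 0.75 (adjusted p = 0.0417, limma), which holds a shift by the removed term and is not the difference of group means.

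Vwf (chr6:125546774-125686679, + strand) encodes von Willebrand factor, which endothelial cells store and release to catch platelets. It had 5.43, 5.29 and 5.71 in mdx sln+/- libraries and 5.23, 5.34 and 4.89 in mdx libraries, against 5.93 and 6.78 in WT libraries. All libraries of the mdx background lay below both WT libraries. Vwf fell by 1.20 ± 0.27 on the log2 scale in mdx (adjusted p = 0.0286, limma), and in mdx sln+/- the difference was -0.88 ± 0.27 and did not pass (adjusted p = 0.0671). Leaving out WT 2 brought the difference in mdx to -0.77 (adjusted p = 0.105). The call also ended without mdx 1 (-1.25, adjusted p = 0.0809), mdx 3 (-1.01, adjusted p = 0.0815) or mdx sln+/- 1 (-1.19, adjusted p = 0.0577).

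Among the members of highest mean level, Fabp4, a fatty acid carrier of capillary endothelium, had 8.84, 8.94 and 8.68 in mdx sln+/- libraries and 8.90, 8.69 and 8.83 in mdx libraries, against 8.97 and 8.70 in WT libraries. Its 3 groups overlapped. Fat cells also express Fabp4; none of 6 adipocyte markers was listed in the table. Cav1, the coat protein of caveolae, had 7.71, 7.82 and 7.77 in mdx sln+/- libraries and 7.75, 7.71 and 7.84 in mdx libraries, against 7.75 and 7.52 in WT libraries. The differences from WT were -0.02 ± 0.12 and -0.03 ± 0.12 for Fabp4, and 0.14 ± 0.09 in both groups for Cav1.

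Pecam1, the adhesion molecule of endothelial junctions, had 7.17, 7.27 and 7.09 in mdx sln+/- libraries and 7.19, 7.07 and 7.24 in mdx libraries, against 7.41 and 7.42 in WT libraries. All 6 libraries of the mdx background lay below both WT libraries, with a difference of -0.24 ± 0.09 in each group (adjusted p = 0.103 and 0.0998, limma), which did not pass. Cdh5, the cadherin of the same junctions, lay the other way at 0.43 ± 0.13 in mdx sln+/- and 0.38 ± 0.13 in mdx (adjusted p = 0.0588 and 0.0865). Of the remaining junction and surface members, Cldn5, the tight junction claudin of endothelium, had differences of 0.61 and 0.49, Mcam, a cell adhesion molecule that pericytes also carry, 0.48 and 0.63, and Esam 0.14 and 0.20 in mdx sln+/- and mdx, and none passed.

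Aqp1, the water channel of capillaries and red cells, had 8.25, 8.43 and 7.90 in mdx sln+/- libraries and 7.52, 7.52 and 8.25 in mdx libraries, against 8.80 and 8.38 in WT libraries. The mdx libraries lay below both WT libraries, and mdx sln+/- lay between and overlapped both other groups. The difference in mdx was -0.83 ± 0.28 (adjusted p = 0.0871, limma). The summed level of 5 red cell markers was 542, 428 and 289 in mdx sln+/-, 284, 469 and 904 in mdx, and 471 and 328 in WT, so mdx 3 was highest for red cell genes and highest of its group for Aqp1; their part in the result was not tested.

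The other exchange and signalling members did not pass either. Gpihbp1, which carries lipoprotein lipase across capillaries, had differences from WT of -0.42 and -0.36 in mdx sln+/- and mdx. Plvap, the diaphragm protein of fenestrae and a marker of immature vessels, had -0.76 ± 0.25 and -0.43 ± 0.25, and Nos3, the endothelial nitric oxide synthase, 0.24 and 0.28. Eng, the BMP co-receptor endoglin, had -0.21 and -0.25, and Egfl7, a secreted factor of endothelium, 0.16 and 0.12. Robo4, a guidance receptor of endothelium, had 0.23 and 0.27. The Notch ligand of tip cells, Dll4, had 0.50 and 0.59, while its receptor Notch1 was at 0.05 and 0.02. Exons of Eng, Egfl7, Sox17, Nos3, Notch1, Dll4, Mcam, Notch3 and Tagln overlap those of another gene, and it is not given whether strand was used in counting, so reads of such pairs cannot be told apart.

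**Figure D2:**
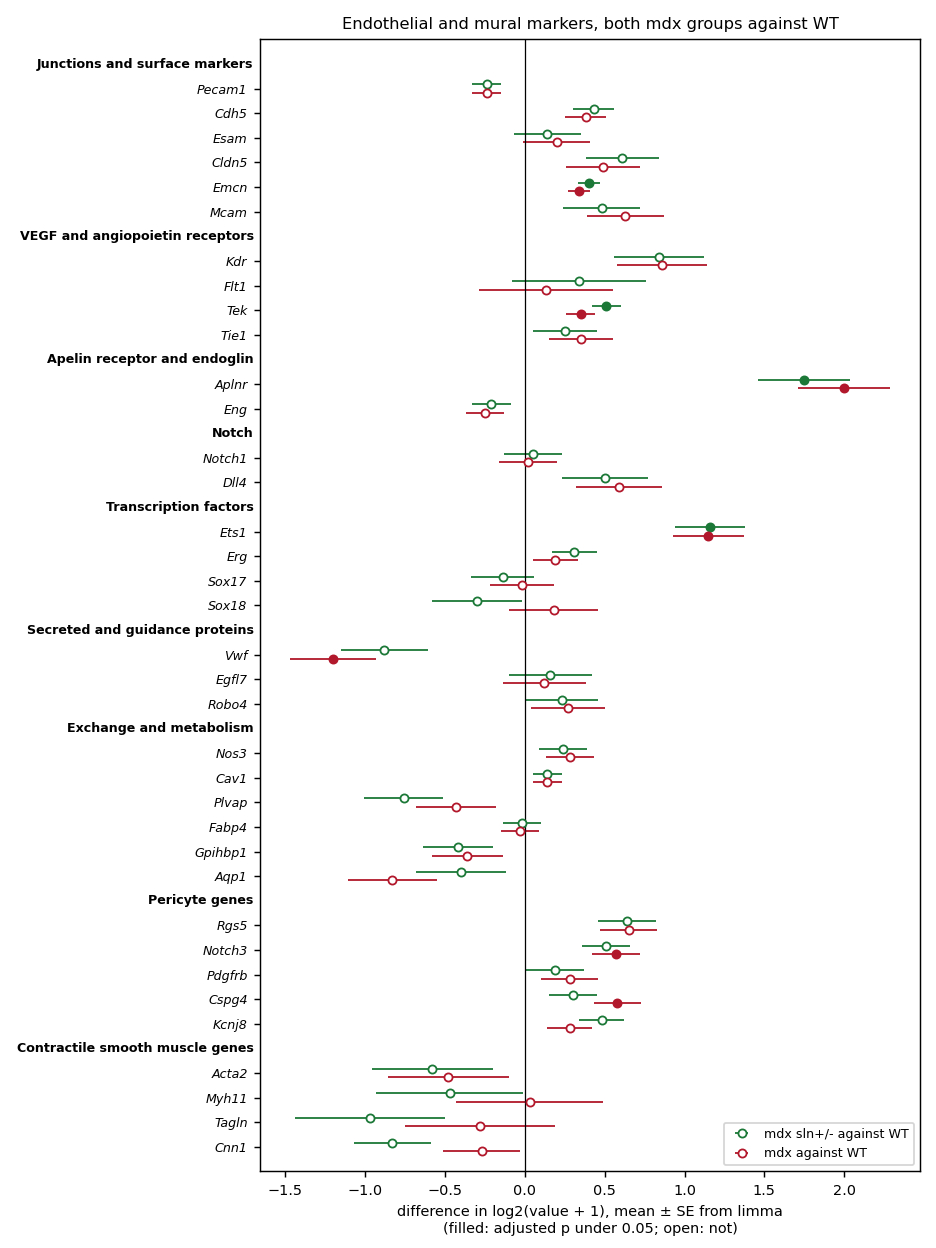
Difference in log2(value + 1) against WT for the 36 markers, by role, with mdx sln+/- in green above mdx in red; points are limma estimates, bars 1 SE, and filled points passed an adjusted p of 0.05. Aplnr lies farthest to the right at 1.75 and 2.00 and Vwf farthest to the left in mdx at -1.20, while the pericyte genes lie at or right of 0.19, and Flt1, Acta2, Myh11 and Tagln have the widest bars, with an SE of at least 0.38.

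The mural members fell into 2 sets. The 5 pericyte genes had positive differences in both comparisons, with medians of 0.48 in mdx sln+/- and 0.57 in mdx, but few passed. Without WT 2, the lowest library for all 5, the medians were 0.34 and 0.38, and 1 of the 5 differences in mdx sln+/- was negative. Notch3 (chr17:32120820-32166852, - strand), the Notch receptor of mural cells, had 5.08, 5.30 and 5.09 in mdx sln+/- libraries and 5.47, 5.07 and 5.10 in mdx libraries, against 4.73 and 4.55 in WT libraries. Cspg4 (chr9:56865033-56899870, + strand), the NG2 proteoglycan of pericytes and oligodendrocyte precursors, had 4.19, 4.21 and 4.14 in mdx sln+/- libraries and 4.72, 4.44 and 4.24 in mdx libraries, against 4.0 and 3.76 in WT libraries. For both genes all libraries of the mdx background lay above WT, and for Cspg4 every mdx library also lay above every mdx sln+/- library. In mdx, Notch3 rose by 0.57 ± 0.15 (adjusted p = 0.0425, limma) and Cspg4 by 0.58 ± 0.15 (adjusted p = 0.0423).

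These calls ended in most of the fits with 1 library left out. Notch3 kept its call only without mdx 2 or mdx sln+/- 2, and its adjusted p rose up to 0.179 without WT 2. Cspg4 kept its call only without mdx 3, and its adjusted p rose up to 0.183 without WT 2. Neither passed in mdx sln+/-, at 0.51 ± 0.15 (adjusted p = 0.0542, limma) for Notch3 and 0.30 ± 0.15 (adjusted p = 0.209) for Cspg4.

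Rgs5, a regulator of G-protein signalling that is abundant in pericytes, had 8.76, 9.01 and 8.75 in mdx sln+/- libraries and 8.90, 8.68 and 8.97 in mdx libraries, against 8.47 and 7.93 in WT libraries. The libraries of the mdx background lay above both WT libraries, of which WT 2 was the lower. Its differences did not pass, at 0.64 ± 0.18 in mdx sln+/- (adjusted p = 0.0531, limma) and 0.65 ± 0.18 in mdx (adjusted p = 0.0529), and without WT 2 they were 0.37 and 0.38. Kcnj8, the pore of the vascular ATP-sensitive potassium channel, lay at 0.48 and 0.28, and Pdgfrb, the receptor through which pericytes are recruited, at 0.19 and 0.28, in mdx sln+/- and mdx.

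The 4 contractile genes had negative differences from WT in mdx sln+/-, and none passed in either comparison with WT. Acta2, smooth muscle actin, had 6.31, 6.63 and 5.94 in mdx sln+/- libraries and 6.17, 6.06 and 6.96 in mdx libraries, against 6.41 and 7.33 in WT libraries. Tagln, the actin-binding protein transgelin, had 3.98, 4.22 and 3.54 in mdx sln+/- libraries and 4.24, 4.32 and 5.26 in mdx libraries, against 4.23 and 5.53 in WT libraries. WT 2 and mdx 3 were the highest pair and mdx sln+/- 3 the lowest library for both, and likewise for Myh11, the smooth muscle myosin heavy chain, and Cnn1, calponin. The median deviation of the 4 genes from their own means was -0.67 in mdx sln+/- 3, 0.71 in mdx 3 and 0.77 in WT 2. The differences from WT were -0.58 ± 0.38 for Acta2, -0.47 ± 0.46 for Myh11, -0.97 ± 0.47 for Tagln and -0.83 ± 0.24 for Cnn1 in mdx sln+/-, and -0.48, 0.03, -0.28 and -0.27 in mdx. Every mdx sln+/- library lay below all mdx and WT libraries for Tagln and Cnn1. Without WT 2 the median of the 4 differences was -0.22 in mdx sln+/-, with 1 positive, and 0.17 in mdx, with 2 positive. Cnn1 had an adjusted p of 0.0589 (limma) in mdx sln+/- against WT, and of 0.019 without mdx 3. Its linear values were 0.55, 0.723 and 0.337 in mdx sln+/- libraries and 0.883, 0.993 and 2.02 in mdx libraries, against 1.43 and 2.03 in WT libraries, so it passed the filter on low values only through mdx 3 and the WT libraries and its difference rests on values near that limit.

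Among the 19 tested genes of a list of other pericyte and smooth muscle genes, 4 had mdx 3 and WT 2 as the highest pair and mdx sln+/- 3 as the lowest library (Lmod1, Tpm2, Myl9 and Mylk, named after their values were seen). WT 2 was the lowest library for 7 of the 19, among them Smtn, Tpm1 and Des. Myl9, the smooth muscle myosin light chain, had 4.95 in mdx 3 and 4.95 in WT 2, against 3.74 to 4.28 in the other 6 libraries. In WT 2 the pericyte genes were the lowest of all libraries, with a median deviation of -0.45, and the contractile genes among the highest.

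**Figure D3:**
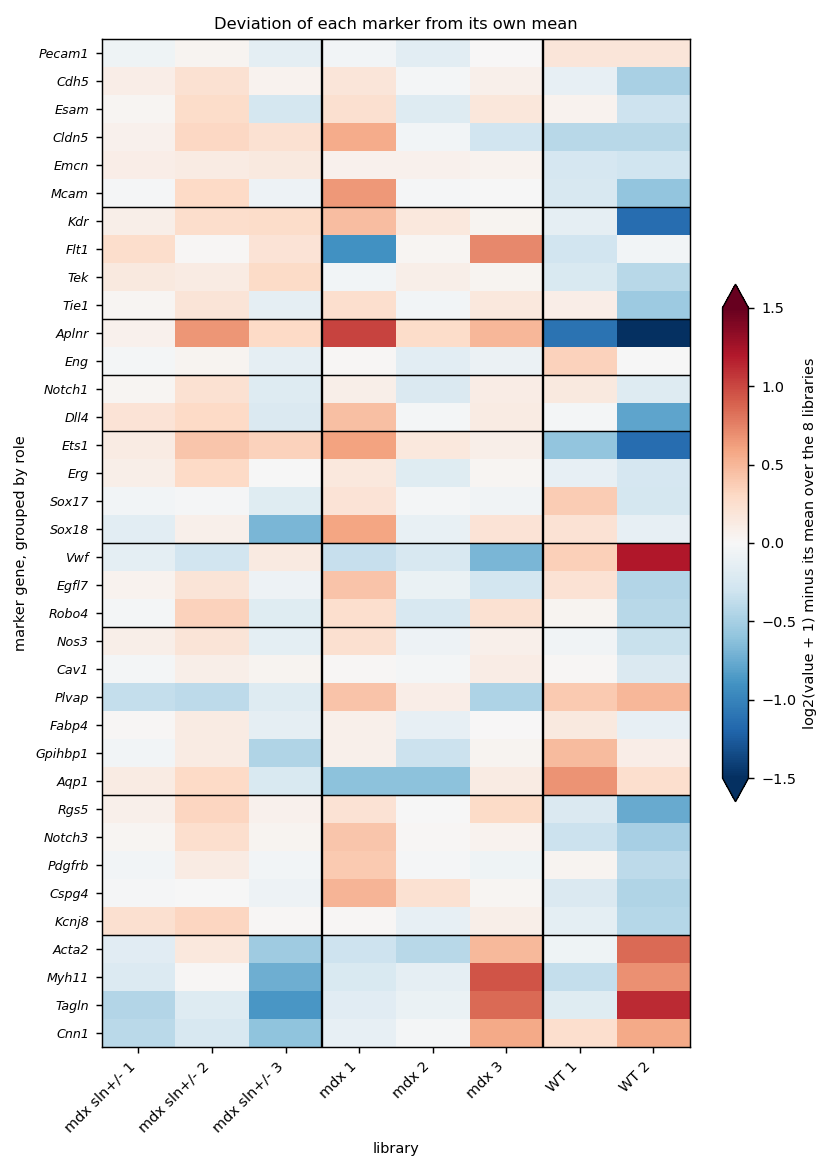
Deviation of each marker's log2(value + 1) from its mean over the 8 libraries, with genes in rows by role and libraries in columns; red is above and blue below the mean, and the colour scale ends at 1.5. Aplnr and Ets1 are blue in both WT libraries, WT 2 is blue for most endothelial and pericyte rows but red for the 4 contractile rows at the bottom, and mdx 3 is red there too.

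Summed levels were set beside those of other cells of the ventricle. The 27 endothelial members summed to 2315, 2534 and 2159 in mdx sln+/-, 2376, 2062 and 2368 in mdx, and 2506 and 2060 in WT, so the groups overlapped. The 9 mural members summed to 691, 814 and 652 in mdx sln+/- and 763, 658 and 856 in mdx, against 605 and 597 in WT, without overlap with WT. Rgs5 carried much of this sum, and without it the other 8 summed to 257, 300 and 222 in mdx sln+/- and 287, 247 and 356 in mdx, against 250 and 353 in WT, which overlapped. The sums of 25 other endothelial genes lay below both WT libraries in all 6 libraries of the mdx background. They were 5693 to 6961, against 7311 and 7418 in WT. Lpl (4680 and 4750 in WT) and Cd36 (1500 and 1660 in WT) carried most of this sum, and the list was not summed without them. Sums of some other lists lay above both WT libraries in all 6 libraries of the mdx background. Those of 20 other pericyte and smooth muscle genes were 9007 to 9308, against 8427 and 7821 in WT. Tpm1 (6410 and 5860 in WT) and Des (1370 and 1340 in WT) carried most of this sum. Heart muscle cells also express both Tpm1 and Des, and the list was not summed without these genes. The sums of 10 cardiomyocyte markers were 45452 to 50062, against 41921 and 40873 in WT. The sums of 11 macrophage markers were 191, 222 and 174 in mdx sln+/- and 231, 171 and 188 in mdx, against 150 and 147 in WT. Macrophages and lymphocytes share some of the module's genes, such as Pecam1 and Ets1, and the part of these cells in the differences was not tested.

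The second question was whether sln heterozygosity changes the vessel markers in mdx ventricle. In mdx sln+/- against mdx, 0 of the 36 members passed, as did 0% of all genes. The limma fit across all genes gave 1 member, Cnn1, an unadjusted p under 0.05 (adjusted p = 0.578, limma), against 8.62% of all genes. Cnn1 passed the filter on low values only through mdx 3 and the WT libraries, so its p-value rests on values near that limit. Differences ranged from -0.69 for Tagln to 0.43 for Aqp1. The 95% intervals reached a median of 0.42 to either side of the difference, and for 31 members the interval lay within a 2-fold change in either direction. The reach of the interval differed between members, at 0.13 for the narrowest and 0.93 for the widest. For Aplnr the interval ran from -0.82 to 0.33, for Ets1 from -0.43 to 0.45, for Emcn from -0.07 to 0.19 and for Tek from -0.03 to 0.35. Tek and Emcn lay higher, and Cspg4, Tagln and Cnn1 lower, without overlap between the groups. These are 5 of 36 members, against 24.8% of all genes that did not overlap (16.8% higher and 7.99% lower). Of the 9 mural members 8 had a negative difference, with a median of -0.10, against 5465 of the 13776 genes tested. The count was 8 under the other 2 scalings too, but 5 without mdx 1, 6 without mdx 3, 6 without mdx sln+/- 3 and 5 among index-named libraries alone.

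The ligands and partners of the marker receptors followed. Of 17 tested genes of VEGF, angiopoietin and apelin signalling, 5 rose in mdx sln+/- against WT (Egln3, Vegfc, Nrp1, Nrp2 and Apln) and 1 fell (Angpt1). In mdx 5 rose (Egln3, Nrp1, Nrp2, Vegfc and Vegfa) and 2 fell (Angpt1 and Hif1a). Apart from the 2 with the smallest adjusted p in each direction, these were named after their values were seen. The differences in mdx sln+/- and mdx had medians of 0.11 and 0.07 over the list. Calls made up 35.3% of the list in mdx sln+/- and 41.2% in mdx, against 15.9% and 15.1% of all genes.

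Angpt1, the activating ligand of Tek, had 3.90, 3.80 and 3.90 in mdx sln+/- libraries and 3.64, 3.64 and 3.47 in mdx libraries, against 4.19 and 4.65 in WT libraries. All 6 libraries of the mdx background lay below both WT libraries. It fell by 0.84 ± 0.15 in mdx (adjusted p = 0.0141, limma), a call that held without each library in turn. It fell in mdx sln+/- by 0.55 ± 0.15 (adjusted p = 0.0436), which ended with any library but WT 1 left out and was -0.33 without WT 2. Apln, which encodes the ligand of Aplnr, had 3.64, 4.0 and 3.86 in mdx sln+/- libraries and 3.27, 3.11 and 3.45 in mdx libraries, against 3.21 and 2.28 in WT libraries. It was higher in mdx sln+/- by 1.09 ± 0.27 (adjusted p = 0.039), held only with WT 1 left out (0.62 without WT 2, adjusted p = 0.116), and did not pass in mdx (0.53 ± 0.27, adjusted p = 0.227).

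Nrp1, a co-receptor of VEGF and semaphorins, rose by 1.05 ± 0.19 in mdx sln+/- (adjusted p = 0.0152, limma) and 1.02 ± 0.19 in mdx (adjusted p = 0.0174), and Nrp2 by 1.08 and 1.07. Vegfc, the ligand of the lymphatic receptor Flt4, rose by 1.13 and 0.87. Egln3, an oxygen-sensing prolyl hydroxylase of the HIF pathway that muscle cells also express, had 6.67, 6.74 and 6.72 in mdx sln+/- libraries and 6.69, 6.76 and 6.93 in mdx libraries, against 5.62 and 5.70 in WT libraries. It had the smallest adjusted p of the list, with differences of 1.06 ± 0.09 (adjusted p = 0.00183) and 1.14 ± 0.09 (adjusted p = 0.00139).

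Of 15 genes of Notch, ephrin and PDGF-B signalling, 0 passed in mdx (3 at an unadjusted p under 0.05). Only the Notch target Hey1 fell in mdx sln+/- (-0.82 ± 0.18, adjusted p = 0.026, limma). Of 13 genes of BMP signalling, shear response and lipid mediators, 1 rose and 3 fell in both groups. That is 30.8% of the list in each, against 15.9% of all genes in mdx sln+/- and 15.1% in mdx. The shear-induced factor Klf2 rose by 1.17 ± 0.21 in mdx sln+/- and 0.94 ± 0.21 in mdx. Bmp6, the BMP ligand made by endothelium, fell by 0.56 and 0.78, Smad6, an inhibitor that BMP induces, by 0.54 and 0.57, and Bmpr2, the type II receptor, by 0.40 and 0.42, in mdx sln+/- and mdx.

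Lists of further vessel genes differed in the share called. It was 8% for other endothelial genes and 15.8% for other pericyte and smooth muscle genes, in both comparisons. For leukocyte adhesion genes it was 16.7% in mdx sln+/- and 33.3% in mdx, against 15.9% and 15.1% of all genes. Of 25 other endothelial genes, 1 rose and 1 fell in each comparison. Npr3, the clearance receptor of natriuretic peptides and a marker of endocardium, fell by 1.36 ± 0.10 in mdx sln+/- (adjusted p = 0.00102, limma) and by 1.03 ± 0.10 in mdx (adjusted p = 0.00289). The genes that rose were Fli1, an ETS factor, in mdx sln+/- (0.45 ± 0.12) and Gja5, the connexin of arterial endothelium and of conduction cells, in mdx (0.45 ± 0.09). Of 6 genes of leukocyte adhesion, Lrg1, a secreted modulator of TGF-beta signalling, fell in mdx sln+/- and mdx (-0.67 and -0.58), and Sele, the selectin of activated endothelium, rose in mdx (1.14 ± 0.23); its linear values in WT were 0.56 and 0.288, so it passed the filter on low values only through the mdx background, where it is high. Of 19 other pericyte and smooth muscle genes, 3 rose in each comparison, Ndufa4l2, Vtn and Abcc9 in mdx sln+/- and Vtn, Des and Ndufa4l2 in mdx. Vtn encodes vitronectin, Abcc9 the partner subunit of the Kcnj8 channel and Des the filament protein desmin, which heart muscle cells also express.

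By list, the share of genes called ran from 6.67% to 35.3% in mdx sln+/- and from 0% to 41.2% in mdx. It was lowest for Notch, ephrin and PDGF-B signalling and highest for VEGF, angiopoietin and apelin signalling in both. Over all genes tested it was 15.9% and 15.1%. Together these 6 lists held 17 calls in mdx sln+/- and 18 in mdx. Those of Egln3 and Npr3 held in both groups, and that of Angpt1 in mdx, without each library in turn; the other 15 in each group ended without at least 1 library. Without WT 2, 5 calls held in each group, those of Egln3, Npr3, Smad6 and Vegfc in both, of Hey1 in mdx sln+/- and of Angpt1 in mdx, while all others of these lists ended, among them Nrp1, Nrp2, Klf2, Bmp6, Bmpr2 and Lrg1 in both groups, Fli1 in mdx sln+/- and Sele in mdx. In mdx sln+/-, 2 held without mdx sln+/- 1 and 2 without mdx sln+/- 3, and in mdx, 4 held without mdx 1.

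**Figure D4:**
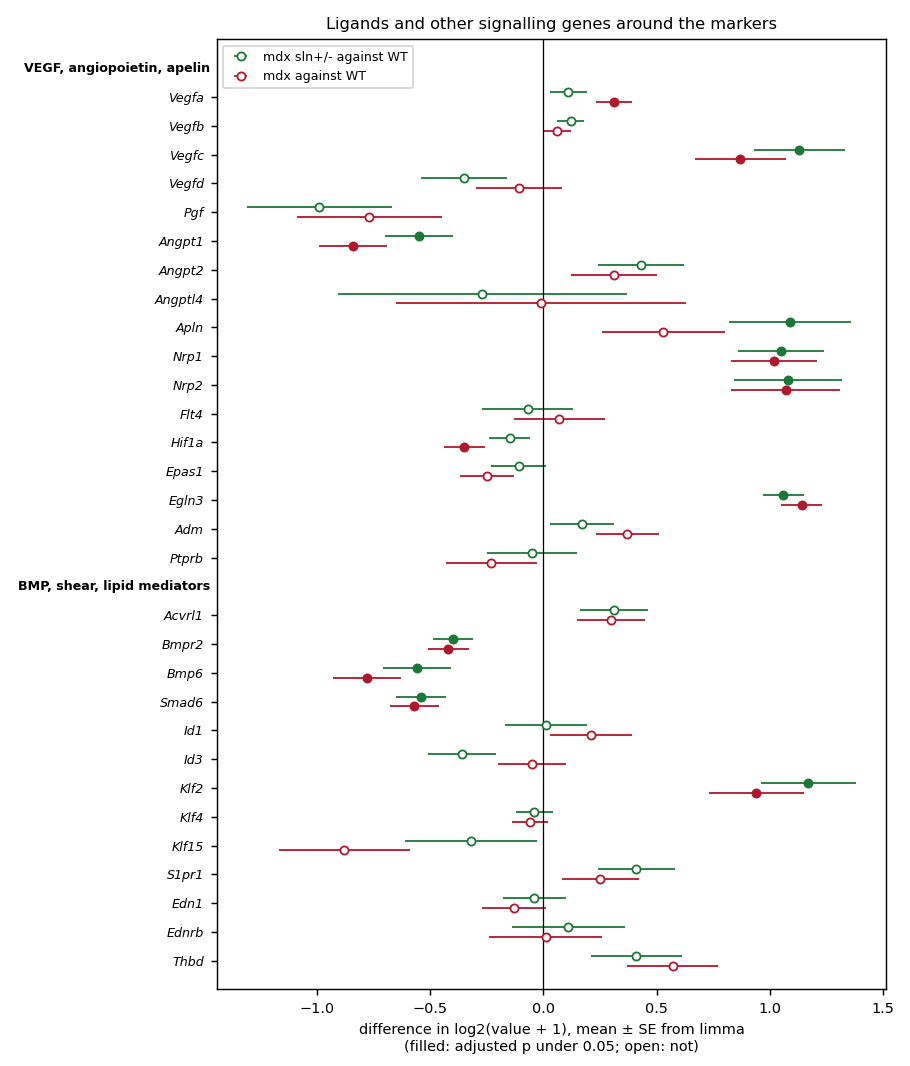
Difference in log2(value + 1) against WT for the signalling genes of 2 lists, with mdx sln+/- in green above mdx in red; points are limma estimates, bars 1 SE, and filled points passed an adjusted p of 0.05. Egln3 lies at 1.06 and 1.14 with an SE of 0.09, Angpt1, Bmp6, Smad6 and Bmpr2 lie left of 0, and Angptl4 has the widest bars.

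At the transcript level, 9.78% of the 92 member transcripts were called in mdx sln+/- against WT, with 6 higher and 3 lower, against 8.86% of all 33027 transcripts. In mdx against WT 6.52% were called, with 2 higher (Aplnr-201 and Ets1-201) and 4 lower (Eng-201, Eng-205, Pecam1-205 and Vwf-203), against 7.25% of all transcripts. In mdx sln+/- against mdx, 0 were called, as were 0% of all. A gene had between 1 transcript (14 members) and 9 transcripts (Egfl7), and how reads shared by transcripts were split is not given, so transcript levels are less certain than gene levels. Without WT 2, a fit chosen after seeing the data, 1 of the 9 calls held in mdx sln+/- (Sox17-201, -0.89, adjusted p = 0.0451, limma) and 0 of the 6 in mdx.

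The transcripts of endoglin differed where the gene sum did not pass. Eng-201 had 4.20, 4.22 and 4.14 in mdx sln+/- libraries and 4.24, 4.13 and 4.12 in mdx libraries, against 4.74 and 4.59 in WT libraries. It was lower than in both WT libraries in all 6, by -0.48 ± 0.10 in mdx sln+/- (adjusted p = 0.0297, limma over all transcripts) and -0.50 ± 0.10 in mdx (adjusted p = 0.0299). Eng-205 was lower in mdx by -0.50 ± 0.11 (adjusted p = 0.038). The Eng-202 transcript had a difference of -0.15 ± 0.14 in mdx, with WT 1 at 6.92 and WT 2 at 6.47. The coding region is 653 codons in Eng-201, 652 in Eng-205 and 641 in Eng-202.

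For Vwf the fall lay in the coding transcript Vwf-203, with -1.08 ± 0.27 in mdx sln+/- (adjusted p = 0.0485, limma over all transcripts) and -1.42 ± 0.27 in mdx (adjusted p = 0.0255). Vwf-210, annotated as a target of nonsense-mediated decay, had 0.01 ± 0.24 and -0.25 ± 0.24. For Tek, Tek-201 rose by 0.66 ± 0.12 in mdx sln+/- (adjusted p = 0.0177) and had 0.47 ± 0.12 in mdx (adjusted p = 0.0514).

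Flt1 has a membrane receptor form and a soluble form that traps VEGF outside the cell. Flt1-202, with 30 exons and 1333 codons, had 5.95, 5.43 and 6.03 in mdx sln+/- libraries and 3.93, 5.75 and 6.47 in mdx libraries, against 4.53 and 5.56 in WT libraries. Flt1-203, with 13 exons and 688 codons, had 5.10, 5.23 and 4.74 in mdx sln+/- libraries and 4.81, 4.80 and 5.41 in mdx libraries, against 5.42 and 4.93 in WT libraries. The longer form varied by more than 2 log2 units within mdx and the shorter one by less than 1, and neither passed the test in any comparison.

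**Figure D5:**
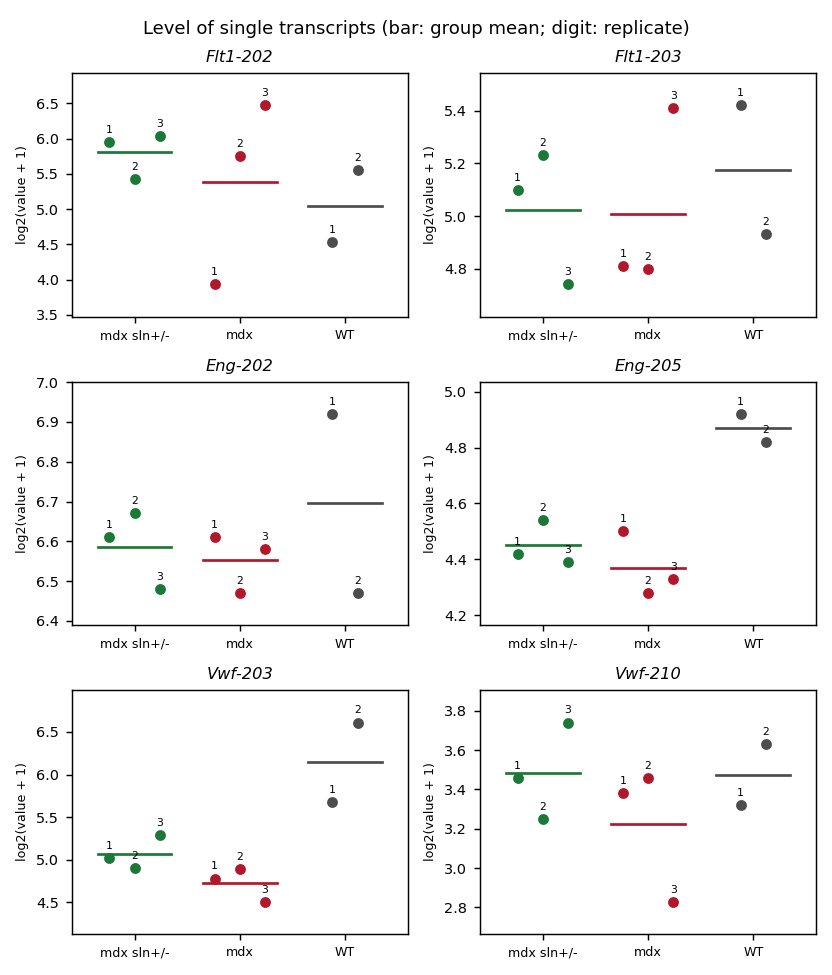
Level of 6 single transcripts in each library as log2(value + 1); points are libraries with their replicate number, bars are group means, and each panel has its own axis. Eng-205 and Vwf-203 lie below both WT libraries in all 6 libraries of the mdx background, Eng-202 and Vwf-210 overlap with WT, and Flt1-202 runs from 3.93 to 6.47 within mdx.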

How the data were processed

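Paired-end RNA sequencing of left ventricle gave 8 libraries. The submitters' processing notes name STAR 2.6.1, mm10, Partek and limma. The authors deposited log2 values per transcript in 16 columns, 2 per library headed r1 and r2; that they are log2(normalised abundance + 1) was inferred from the values (3.07e-05 to 16.2). The meaning of r1 and r2 is not stated in the sources used here; they correlated at 0.981 to 0.987 and were averaged to 1 replicate. Depth is unknown, so no counting interval is given.

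Averages were turned back to linear abundances, summed by gene symbol and put on a log2 scale after adding 1. The test took the 13776 genes that reached a value of 1 in 2 or more libraries and left out 793. In every transcript the contrast of mdx 2 and mdx sln+/- 2 with the rest of the mdx background was at 0 (largest difference 5.12e-05, against an SD of 0.127 to 0.199 for other such contrasts), so a term had been removed before deposit. limma 3.58.1 (R 4.3.3) was fitted to all 8 libraries with the group and that term (4 residual degrees of freedom, prior with trend, median prior 3.36), with Benjamini-Hochberg adjustment over all genes and a threshold of 0.05. Transcripts were fitted alike on the deposited values, with all 33027 tested. The steps were tested on simulated data.

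Members and gene lists were chosen with earlier results of these data known, so they give no independent support. Values per library are given for called members and for the 4 endothelial and 2 mural members of highest mean level, and from each list the 2 genes with the smallest adjusted p per direction are named; further genes were named after their values were seen. Same-numbered libraries were not paired. Coordinates and exons are those of GENCODE M21 (GRCm38). Python 3.11.15, pandas 2.3.3, numpy 2.4.6 and matplotlib 3.10.9 prepared tables and figures. For called transcripts a fit without WT 2 was added after the data were seen. Alternatives covered scaling, filters, pseudocounts, value columns, covariates, samples and the prior.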

Additional observations from a re-analysis of the deposited data

How the results depend on the processing

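With 1 choice changed at a time, no called member changed sign, and no member was called in mdx sln+/- against mdx. Leaving out each library in turn gave 0 to 7 endothelial, 0 to 1 mural and 316 to 2400 calls over all genes in mdx sln+/- against WT, and 1 to 7, 0 to 2 and 637 to 1814 in mdx against WT. The group alone, which counts a used-up degree of freedom, gave 9, 4 and 3994 calls in mdx sln+/- and 9, 3 and 3797 in mdx. With a term for the style of the sample names (with or without an index code), 711 genes were called in mdx sln+/-, and 1 endothelial, 0 mural and 559 genes in mdx. Plain-named libraries alone gave 1 endothelial member and 350 genes in mdx sln+/- and 1, 0 and 131 in mdx; index-named libraries alone hold no WT. A fit of only the 2 groups compared gave 2 mural members in mdx sln+/- and 1, 0 and 529 in mdx. Without WT 2 and mdx sln+/- 3 there were 0 endothelial members and 66 genes in mdx sln+/-, and 0, 0 and 154 in mdx.

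For mural members in mdx, the r1 columns, the r2 columns or the highest transcript alone gave 1 call, and median-ratio scaling or a prior without trend gave 0; in mdx sln+/- a pseudocount of 0.1 or the r1 columns gave 1. Median-ratio scaling brought the share of calls that were higher from 59.2% to 45.3% in mdx sln+/- against WT. Where a call ended, the cause was not tested.

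Replicate numbers were not taken as pairs: deviations of same-numbered libraries correlated at -0.271 and -0.310 between mdx sln+/- and mdx (numbers 1 and 3; the removed term sets the value for number 2), at -0.007 and -0.176 between mdx sln+/- and WT, and at 0.149 and 0.176 between mdx and WT. A replicate block gave 0 endothelial calls in both comparisons, 74 calls over all genes in mdx sln+/-, and 0 mural and 54 calls in mdx. The Aplnr call in mdx, kept in 22 of 24 alternatives, ended under the block and without WT 2 and mdx sln+/- 3 (adjusted p = 0.0838, limma).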

Other observations

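Lists of other cells of the ventricle, tested in the same fit (limma), gave these counts. The share called was 16.7% of the lymphatic, 20% of the fibroblast and 27.3% of the macrophage markers in each comparison with WT. Over all genes it was 15.9% in mdx sln+/- and 15.1% in mdx. Of 6 lymphatic markers 1 fell in mdx sln+/- and in mdx against WT, Lyve1, a hyaluronan receptor that macrophages also carry, with 3.84, 4.08 and 3.51 in mdx sln+/- and 3.46, 3.38 and 4.09 in mdx, against 4.77 and 5.13 in WT (-1.14 ± 0.27, adjusted p = 0.0319, and -1.31 ± 0.27, adjusted p = 0.0215). Both calls ended without WT 2 (adjusted p = 0.15 and 0.113). Of 10 tested fibroblast markers 2 rose in each comparison, the collagens Col3a1 (1.48 ± 0.25 and 1.36 ± 0.25) and Col1a1 (0.90 ± 0.22 and 0.92 ± 0.22), and all 4 of these calls ended without WT 2. Among 11 macrophage markers, 10 had a positive and 1, Cd163, a negative difference in each comparison. Cd163 was not called, but lay below both WT libraries in all 6 libraries of the mdx background. Of the 11, 3 rose in each comparison, Adgre1, Cx3cr1 and Csf1r in mdx sln+/- and Itgam, Adgre1 and Cx3cr1 in mdx. Of these calls, those followed with 1 library left out (Adgre1 in both comparisons, Cx3cr1 in mdx sln+/- and Itgam in mdx) ended without WT 2 too, and each of these calls and those of Lyve1 and the collagens ended without at least 1 further library. Of 10 cardiomyocyte, 5 red cell and 3 nerve markers, 0 were called in either comparison, with 4, 0 and 1 at an unadjusted p under 0.05 in mdx sln+/- and 3, 0 and 1 in mdx. None of these lists had a call in mdx sln+/- against mdx.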
